A study of Homo sapiens with 12 samples.

Results

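The genes described are those of the cytosolic ribosomal proteins, taken by symbol: names made of RPS or RPL, a number and at most an A or X, together with RPLP0, RPLP1 and RPLP2. Members had to be measured on both array designs of the study, and 65 genes were, 23 of the small subunit and 42 of the large subunit, out of 16251 genes that both designs measure. RPS18 matched the rule in the RWPE1 table alone, and RPL21 and RPS27 in the VCaP table alone, so these 3 genes are not analysed here. Where a gene has several probes, the one with the brightest average in that table stands for it. Every level is a normalized signal taken to be on a log2 scale, on which 1 unit is a doubling.

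Total RNA was measured on Illumina bead arrays in 6 groups of 2 arrays each. RWPE1, an immortalised, non-cancerous human prostate epithelial line, was transfected with GFP or with a GFP-ERG fusion and collected at 48 h or 72 h, which gave 8 arrays in 4 groups. VCaP, a prostate cancer line with a TMPRSS2-ERG gene fusion, was given a lentiviral scramble shRNA or an ERG shRNA, both followed by puromycin selection, which gave 4 arrays of another design. ERG belongs to the ETS family of DNA-binding transcription factors. The sources used here do not give the promoter of the GFP-ERG construct, the share of transfected cells or the number of clones kept by selection.

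The ribosome reads mRNA on its small subunit and joins amino acids on its large subunit, and each ribosomal protein is needed in about equal amount. The mRNAs of ribosomal proteins are among the most abundant of a growing cell. Most of them begin with a C followed by an unbroken run of pyrimidines, the terminal oligopyrimidine (TOP) start, through which LARP1 and the mTOR pathway control their translation and stability. Making a ribosome also takes a nucleolar machinery of RNA polymerase I and assembly factors, whose genes are described beside the members.

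RefSeq promoters of build GRCh38.p14, 300 bases each, were matched to 55 of the 65 members. A C at the annotated start followed by at least 4 C or T bases was present in 37 of these 55 promoters (67.3%), against 4.70% of 13838 promoters of genes on either array. Short windows are printed to show this start in the genes on which the results turn. Each holds 15 bases before the annotated start and 15 from it on, 5′ to 3′ on the gene's strand, with the C and its pyrimidine run in capitals.
RPL37A, chr2:216498829-216498858, plus strand: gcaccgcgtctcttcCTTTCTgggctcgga
RPS23, chr5:82278340-82278369, minus strand: tcctgcggtgcttctCTCTTTCgctcaggc
RPL29, chr3:51995881-51995910, minus strand: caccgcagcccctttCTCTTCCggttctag
RPL22, chr1:6199581-6199610, minus strand: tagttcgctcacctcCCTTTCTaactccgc
RPL27A, chr11:8682777-8682806, plus strand: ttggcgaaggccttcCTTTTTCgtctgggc
RPS21, chr20:62387088-62387117, plus strand: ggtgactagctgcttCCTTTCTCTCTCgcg
RPL36, chr19:5690280-5690309, plus strand: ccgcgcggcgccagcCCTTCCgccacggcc
RPL35A, chr3:197950175-197950204, plus strand: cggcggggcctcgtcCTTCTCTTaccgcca
RPS6, chr9:19380222-19380251, minus strand: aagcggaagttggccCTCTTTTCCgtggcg
RPS26, chr12:56041903-56041932, plus strand: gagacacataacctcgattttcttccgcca
RPL37A, RPS23, RPL29 and RPL22 are shown as large changes between 48 h and 72 h, RPL27A for its response to GFP-ERG, and RPS21, RPL36 and RPL35A for VCaP. RPS6, whose signal did not pass any test, has a start of the same kind, while RPS26 has none at its annotated base.

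The core of the ETS binding motif, CCGGAA on either strand, was searched because ERG is an ETS factor. It was found in 29 of the 55 member promoters (52.7%), against 23.5% of the 13838 promoters of genes on either array. The windows below show 1 match in each of 3 members, in capitals.
RPL29, chr3:51995981-51996010, minus strand: tggcttgcgttcTTCCGGgcttcggaactt
RPS21, chr20:62386957-62386986, plus strand: agaacctccttgCCGGAAgcggaagtgcgt
RPS6, chr9:19380323-19380352, minus strand: gattaatctcgcCCGGAAgtaccgcccacc
The matches begin at positions -103, -134 and -104 from the annotated start. A match describes the letters of the window and was not tested as a binding site.

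Of the whole series, these facts bear on the members. Of 2 ERG probes in RWPE1, the one for NM_182918 followed the labels and the one for NM_004449 did not differ past the threshold. At 48 h the first read 6.36 ± 0.09 in GFP arrays against 7.31 ± 0.03 in GFP-ERG arrays, and at 72 h it was 6.31 ± 0.08 against 6.94 ± 0.01 (mean ± SD, n = 2). The second read 6.93 ± 0.08 against 6.92 ± 0.12 and 6.94 ± 0.01 against 6.91 ± 0.09. In VCaP the brighter of 2 probes for NM_182918 read 8.34 ± 0.02 with scramble shRNA and 8.74 ± 0.04 in the arrays labelled ERG shRNA, so this probe was higher there, against the label (log2 difference 0.40, limma adjusted p = 0.0413). The dimmer probe read 7.56 ± 0.01 and 7.52 ± 0.04. The probe for NM_004449 read 7.63 ± 0.04 with scramble shRNA and 7.62 ± 0.02 in the arrays labelled ERG shRNA. The difference against the label rests on the brighter probe alone. These arrays are therefore called the arrays labelled ERG shRNA throughout. Of the markers of basal prostate cells, all 3 measured were above the median gene in RWPE1 and all 3 were below it in VCaP, where all 6 luminal markers were above it. The labels do not say at which step the arrays of a group were separated, so p-values measure the spread between these arrays, which may be technical. In such bulk RNA, fewer cells of a kind and less RNA per cell cannot be told apart.

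Ribosomal protein probes were among the brightest of both arrays. In RWPE1 the members' mean levels ran from 6.49 to 14.99 with a median of 13.75, and 31 of 65 lay at or above 14, a level that 97 of all 16591 genes (0.585%) reached. In VCaP they ran from 7.59 to 15.17 with a median of 13.94. RPL10, a large subunit protein added late, in the cytoplasm, had the dimmest probe in both tables and was the only member below the median of all probes. These probe levels are not amounts of mRNA and rank no gene against another. Many ribosomal protein genes have processed pseudogenes and, in some cases, paralogs, so a probe's signal may include RNA of near copies.

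Between 48 h and 72 h in RWPE1, 21 of the 65 genes rose and 6 fell in GFP cells, and 20 rose and 1 fell in GFP-ERG cells. RPS23, RPL29, RPL37A and RPL22 had the largest rises shared by both kinds of cell, of 1.53-fold to 1.73-fold. Among all genes, 11.8% rose and 11.2% fell in GFP cells, and 13.1% rose and 12.6% fell in GFP-ERG cells (limma, adjusted p at or under 0.05, 2-sided). Of the members, 32.3% and 30.8% rose. The members' median change was small, 0.07 in GFP and 0.04 in GFP-ERG cells, beside 0.01 and 0.00 over all genes. The sources used here name no hybridisation batches, so any difference in handling between 48 h and 72 h arrays cannot be told apart from time.

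The rises included both subunits. In the small subunit 5 of 23 genes rose in either kind of cell, and they were the same 5: RPS7, RPS15, RPS21, RPS23 and RPS26. In the large subunit 16 of 42 rose in GFP cells and 15 in GFP-ERG cells. The 16 genes that rose in both comparisons make up 76.2% of the members that rose in GFP cells and 80.0% of those that rose in GFP-ERG cells. Over all genes, the 1387 that rose in both are 70.8% and 63.7%. The comparisons have no array in common, and over the 65 genes their changes correlated with a Pearson r of 0.86 and a Spearman rho of 0.81, given as a description since genes are not independent replicates.

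**Figure D1:**
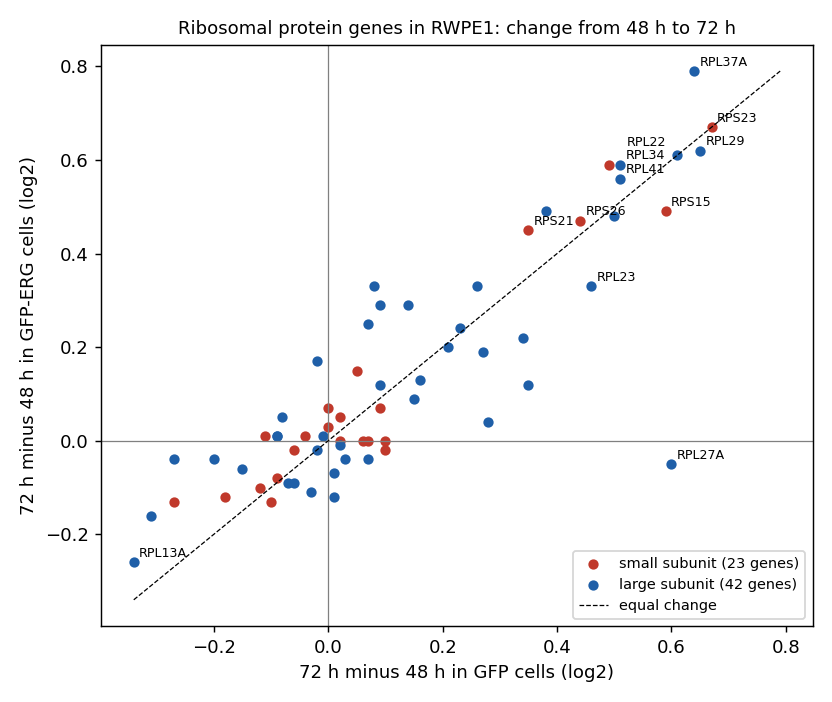
Change in log2 signal from 48 h to 72 h for each of the 65 ribosomal protein genes, in GFP cells (horizontal) and GFP-ERG cells (vertical). Each point is 1 gene, coloured by subunit, and the dashed line marks equal change; a cloud of points surrounds 0, a second stretch runs up the line to RPL37A at 0.64 and 0.79, and RPL27A lies apart at 0.60 and -0.05.

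RPS23, a protein of the decoding centre, read 10.50 and 10.77 in GFP cells at 48 h and 11.30 and 11.31 at 72 h, and 10.68 and 10.72 against 11.34 and 11.39 in GFP-ERG cells. Every 72 h array was above every 48 h array. The change was 0.67 (SE 0.08, limma adjusted p = 9.74e-07) in GFP cells and 0.67 (SE 0.08, limma adjusted p = 9.29e-07) in GFP-ERG cells. RPS15, also at the decoding site, read 9.47 and 9.52 at 48 h and 10.07 and 10.10 at 72 h with GFP, and 9.55 and 9.56 against 10.04 and 10.05 with GFP-ERG. Its arrays of the 2 times did not overlap, and it rose by 0.59 and 0.49. RPS7, RPS21 and RPS26 rose by 0.35 to 0.49 in GFP cells and by 0.45 to 0.59 in GFP-ERG cells.

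RPL37A, a zinc-binding protein of the large subunit, had the largest rise in GFP-ERG cells. It read 9.83 and 9.94 at 48 h and 10.50 and 10.54 at 72 h with GFP, and 9.79 and 9.84 against 10.57 and 10.63 with GFP-ERG. The 4 arrays of 72 h all stood above the 4 of 48 h, with changes of 0.64 (SE 0.06, limma adjusted p = 2.75e-07) and 0.79 (SE 0.06, limma adjusted p = 1.19e-08). RPL29 read 10.64 and 10.72 at 48 h against 11.28 and 11.37 at 72 h with GFP, and 10.68 and 10.71 against 11.31 and 11.33 with GFP-ERG. RPL22, an RNA-binding protein of the large subunit, read 11.13 and 11.25 against 11.79 and 11.82, and 11.20 and 11.09 against 11.73 and 11.78. Neither gene's arrays overlapped between the times, and both rose by 0.61 to 0.65 in both kinds of cell.

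**Figure D2:**
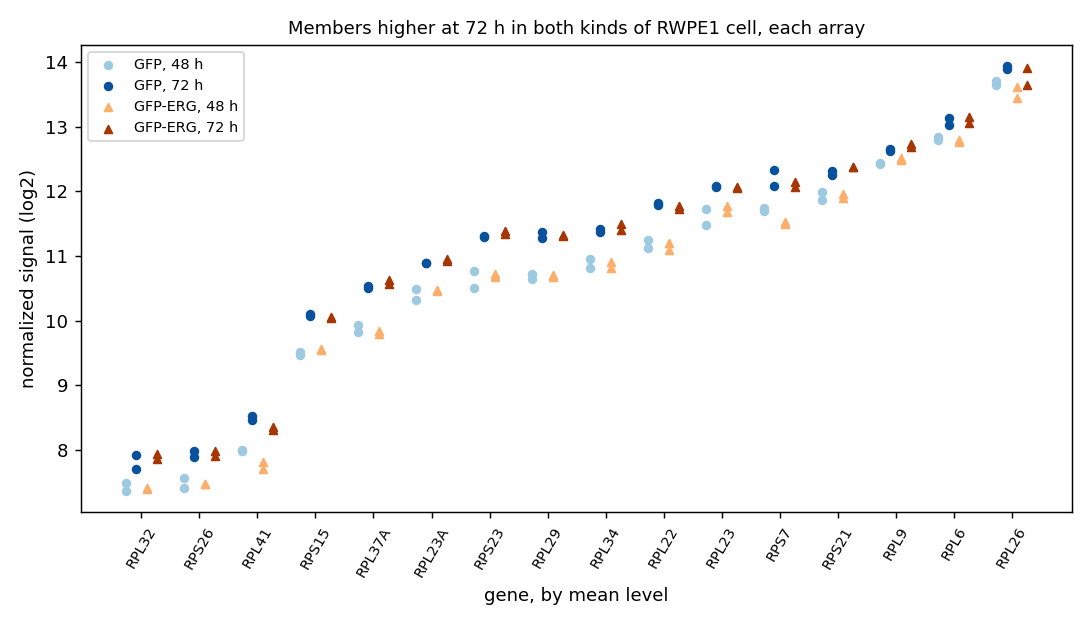
Log2 signal on each of the 8 RWPE1 arrays for the 16 members that rose from 48 h to 72 h in both GFP and GFP-ERG cells, ordered by mean level. Each point is 1 array, circles for GFP and triangles for GFP-ERG, pale for 48 h and dark for 72 h; the mean levels run from 7.64 for RPL32 to 13.73 for RPL26.

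Members were also grouped by role, to be read beside the 16 of all 65 members that rose in both kinds of cell. The role lists are short, and none was tested against that share. Of the 9 proteins around the peptide exit tunnel, RPL22, RPL23A and RPL26 rose in both kinds of cell, and RPL17 fell by 0.27 in GFP cells. Of 7 proteins listed for the mRNA channel and decoding site, RPS15, RPS23 and RPS26 rose in both, and RPS2 and RPS9 fell in GFP cells by 0.18 and 0.27. RPLP1, an acidic stalk protein that recruits elongation factors, rose in GFP cells by 0.28, and its value in GFP-ERG cells was 0.04 (SE 0.10); over 16 alternatives the GFP value ran from 0.12 to 0.45 and lost its call in 5, among them the one without array 2 of GFP at 72 h, which gave the 0.12. Its partner RPLP2 had changes of 0.03 and -0.04. RPL5 and RPL11, which carry the 5S rRNA into the large subunit and can bind MDM2, had changes of -0.06 and -0.02 in GFP cells and -0.09 and -0.02 in GFP-ERG cells, none of which passed. Of 9 measured genes mutated in Diamond-Blackfan anaemia, an inherited red cell failure, RPS7, RPS26 and RPL26 rose in both. The RPL26 call was lost in 5 of 16 alternatives in GFP cells and in 2 of 16 in GFP-ERG cells, each time without 1 array of the groups compared except for 1 loss in GFP cells under cyclic loess. RPS19, the gene most often mutated in that disease, had changes of 0.00 and 0.03. RPS6, the substrate of S6 kinase, had changes of -0.04 and 0.01.

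RPL13A, known in human cells as a translation silencer when released from the ribosome, was the member that fell in both kinds of cell. It read 13.25 and 13.28 at 48 h and 12.89 and 12.96 at 72 h with GFP, and 13.35 and 13.40 against 13.17 and 13.06 with GFP-ERG. Each pair of 72 h arrays was below its pair of 48 h arrays, by 0.34 (limma adjusted p = 0.000448) and 0.26 (limma adjusted p = 0.00495). In GFP cells RPL7A, RPL17, RPS9, RPL28 and RPS2 fell as well, by 0.18 to 0.31, and their changes in GFP-ERG cells ran from -0.16 to -0.04 with none past the threshold. The RPL28 and RPS2 calls in GFP cells were lost in 8 and 7 of 16 alternatives, with adjusted p up to 0.233 and 0.208, and among these were the fits without any 1 of the 4 GFP arrays. The RPL17 and RPS9 calls were lost in 3 and 2. The test of the difference between the 2 kinds of cell was not passed by any of these 5 genes.

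Of the 25 members that rose in either kind of cell, 24 had a mean level below 14. Of the 34 members with a mean level below 14, 21 rose and 5 fell in GFP cells, and 19 rose and 1 fell in GFP-ERG cells. Over all genes below 14, 11.8% rose and 11.2% fell in GFP cells, and 13.2% and 12.7% in GFP-ERG cells. Of the 31 members at or above 14, 0 rose and 1 fell in GFP cells (RPS2), and 1 rose and 0 fell in GFP-ERG cells (RPL3). Over all 97 genes at or above 14, these 31 members included, 9.28% rose and 11.3% fell in either kind of cell. Between 8 and 13, 18 of 23 members (78.3%) rose and 2 fell with GFP, against 21.8% and 20.5% of all 6664 genes at that level. With GFP-ERG 16 of the 23 (69.6%) rose and 0 fell, against 24.3% and 22.5%. Between 13 and 14, 1 of 7 members rose and 3 fell with GFP, against 20.2% and 22.1% of all genes there. With GFP-ERG 1 of these 7 rose and 1 fell, against 22.1% and 20.9%. The changes correlated with probe level at r = -0.52 and -0.48 over the 65 genes, measured on the same probes.

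**Figure D3:**
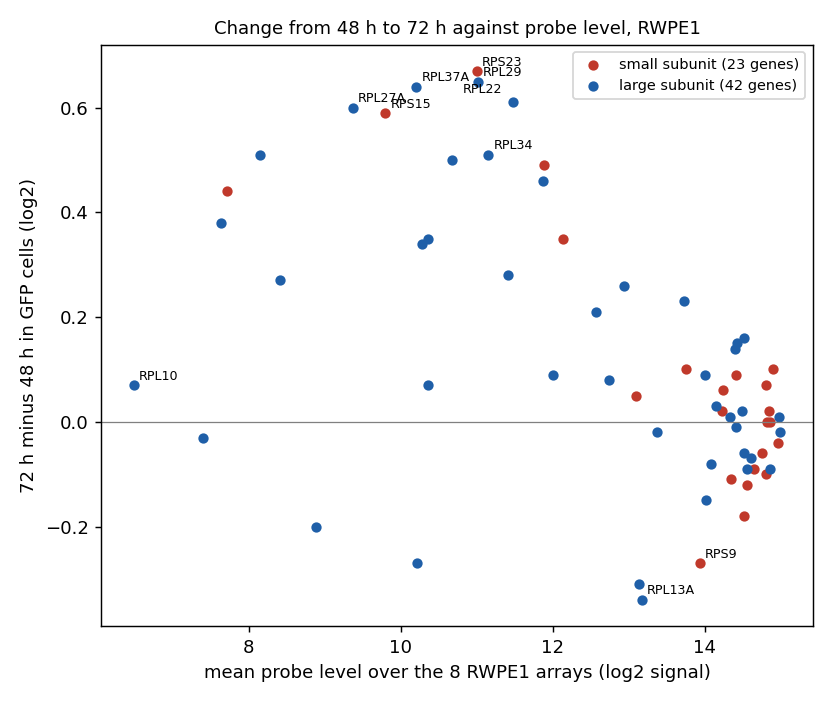
Change in log2 signal from 48 h to 72 h in GFP cells (vertical) against mean level over the 8 RWPE1 arrays (horizontal) for the 65 members. Each point is 1 gene, coloured by subunit; the 31 members at or above a level of 14 lie close to 0, and the rises lie to their left.

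In RWPE1, 4 members had 2 probes each, and these differed in part. RPL36 had a probe at 14.01 that changed by -0.15 and -0.06, neither past the threshold, and a probe at 8.56 that rose by 0.44 and 0.42 (limma adjusted p over all probes 0.000295 and 0.000331). Both probes of RPL34, at 11.15 and 8.08, rose, by 0.51 and 0.59 and by 0.48 and 0.37. For RPS29 the bright probe at 14.84 had changes of 0.02 and 0.05, while a probe at 12.69 for another transcript fell by 0.30 and 0.22. The second probe of RPL32, at 7.21, had changes of -0.09 and 0.14, against rises of 0.38 and 0.49 at the probe used, and the mean of both RPL32 probes did not pass in GFP cells (0.14, limma adjusted p = 0.103). Whether the brightest probes can still register a rise was not tested.

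The TOP start was found among members that rose and among the others. A C with at least 4 pyrimidines stood at the annotated start of 8 of 14 matched members that rose in both kinds of cell (57.1%) and of 29 of 41 other members (70.7%). The ETS motif was in 7 of 14 and in 22 of 41 (53.7%). These shares are descriptions of small groups.

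Genes that make ribosomes were counted beside the members. Among all genes, 11.8% rose and 11.2% fell in GFP cells, and 13.1% and 12.6% in GFP-ERG cells. At levels from 8 to 14, 21.8% of all genes rose and 20.5% fell with GFP, and 24.3% and 22.5% with GFP-ERG. Of 49 measured ribosome biogenesis genes, 27 rose and 1 fell in GFP cells and 31 rose and 2 fell in GFP-ERG cells, with medians of 0.25 and 0.27. POLR1B, a core subunit of RNA polymerase I, rose by 0.60 and 0.59, and BOP1, which processes the large subunit rRNA, by 0.50 and 0.66. RRP9, part of the snoRNP that prepares small subunit rRNA, rose by 0.55 and 0.54. RRS1, which brings the 5S particle into the growing subunit, rose by 0.39 and 0.64. Of 28 initiation factors, 11 rose and 1 fell in GFP cells and 12 rose and 1 fell in GFP-ERG cells. EIF3A, the largest scaffold subunit of eIF3, rose by 0.52 in both.

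Other TOP mRNAs and the mTOR pathway were counted in the same way. Their counts are to be read beside the same shares, as 11.8% of all genes rose with GFP and 13.1% with GFP-ERG. These short lists were not tested against those shares. Of 15 elongation factor and other TOP genes, 3 rose with GFP and 5 with GFP-ERG, and 0 fell; EIF4B, which aids the helicase eIF4A and has a TOP mRNA, rose by 0.59 and 0.58. NPM1 had changes of -0.12 and 0.03 and EEF2 of 0.14 and 0.04. Of 16 genes of translation control by mTOR, 2 rose and 1 fell, and 3 rose and 1 fell. MTOR itself rose by 0.22 and 0.20, while LARP1 had changes of 0.05 and -0.02. Of 7 paralogs of ribosomal proteins, RPL26L1 rose in both, by 0.30 and 0.36, and RPL7L1 rose in GFP-ERG cells by 0.34. FAU, which encodes a ubiquitin-like protein fused to a small subunit protein, had changes of 0.20 and 0.08 that did not pass.

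Some cell type markers moved over the same time. Of 3 basal markers, ITGB4 fell by 1.07 and 1.12, KRT5 rose by 0.49 and 0.58 and KRT14 rose by 0.31 in GFP-ERG cells, and the list's mean level was 13.14 to 13.21 at 48 h and 13.03 at 72 h with GFP. Of 5 luminal markers 2 rose with GFP and 1 with GFP-ERG, and the mean level went from 8.11 to 8.14 up to 8.20 to 8.26 with GFP. KLK3, ACP3 and TMPRSS2 lay below the median gene. The endothelial list lay wholly below that median, and in it TEK fell by 0.53 and 0.64. Of the 5 fibroblast markers, COL1A1 and DCN rose. CD68, a lysosomal protein listed with leukocyte markers, fell by 1.16 and 1.13, while PTPRC and CD3E were below the median gene. The part of these shifts in the members' change was not tested.

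Few ribosomal protein genes passed the threshold between GFP-ERG and GFP. At 48 h, 1 of 65 was higher and 1 lower than with GFP, when 4.86% of all genes were higher and 3.93% lower. At 72 h, 0 were higher and 1 lower, against 3.19% and 3.01% of all genes. Calls were also few among all 97 genes at or above a level of 14, where 31 of the members lay. There 1.03% were higher and 1.03% lower at 48 h, and 0% and 1.03% at 72 h. Whether a shift shared by the brightest genes could show in these values was not tested. Over the mean of both times 2 were higher and 2 lower, against 6.82% and 5.68%. The members' median difference was 0.00, 0.02 and 0.01, beside 0.00 over all genes in each. For the mean of both times the 95% intervals of 64 of the 65 members lay within 0.3 log2 units of 0, and the interval that reached furthest ended at -0.30 (RPL41). At single times the intervals of 64 members at 48 h and of all 65 at 72 h lay within 0.5.

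RPL41, the smallest ribosomal protein, was lower with GFP-ERG. At 48 h its GFP arrays were at 7.99 and 8.0 and its GFP-ERG arrays at 7.82 and 7.71, and 8.53 and 8.47 against 8.31 and 8.35 at 72 h. At each time both GFP-ERG arrays were below both GFP arrays. The difference was -0.23 at 48 h (SE 0.06, limma adjusted p = 0.0288), -0.17 at 72 h (SE 0.06, limma adjusted p = 0.14) and -0.20 for the mean of both times (SE 0.05, limma adjusted p = 0.00434). Its call at 48 h was lost in 4 of 16 alternatives (without either GFP array of 48 h, without GFP-ERG array 2 of 48 h, and with only the 4 arrays of that time), with adjusted p up to 0.207.

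RPS3, which lines the mRNA entry and also acts in DNA repair, differed by -0.15 in the mean of both times (limma adjusted p = 0.0374). At 48 h its GFP arrays were at 14.51 and 14.43 and its GFP-ERG arrays at 14.24 and 14.29. The 72 h arrays were at 14.40 and 14.32 against 14.26 and 14.28, so at both times the groups did not overlap. RPL13A and the stalk protein RPLP2 were each higher by 0.15 in the mean of both times (limma adjusted p = 0.0336 and 0.0431). RPLP2 at 48 h was at 14.14 and 13.96 in GFP arrays against 14.24 and 14.24 in GFP-ERG arrays, and at 72 h at 14.10 and 14.06 against 14.19 and 14.20. The stalk partner RPLP1 differed by 0.02. The calls of RPS3, RPL13A and RPLP2 were lost in 6, 5 and 7 of 15 alternatives, all of them leaving out 1 array.

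RPL27A, a large subunit protein that the hydroxylase RIOX2 modifies, was the member whose response to GFP-ERG differed between the times. At 48 h its GFP arrays were at 9.0 and 9.10 and its GFP-ERG arrays at 9.47 and 9.35, and at 72 h they were at 9.53 and 9.77 against 9.34 and 9.38. GFP-ERG arrays were above GFP arrays at 48 h and below them at 72 h. The difference was 0.36 (SE 0.08, limma adjusted p = 0.00343) and then -0.29 (SE 0.08, limma adjusted p = 0.0227). The test of the change between times gave -0.64 (SE 0.11, limma adjusted p = 0.00395), when 0.205% of all genes passed that test as higher and 0.271% as lower. The 72 h call was lost without array 2 of GFP (-0.17, adjusted p = 0.41) and without either GFP-ERG array, and the 48 h call without array 1 of GFP. Put by time, RPL27A rose by 0.60 in GFP cells and had a change of -0.05 in GFP-ERG cells.

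Across members, the effects of GFP-ERG at 48 h and at 72 h correlated with r = 0.05 and rho = 0.13 over 65 genes and no array in common. In the biogenesis list the mean of both times gave 1 gene higher and 7 lower of 49, when 6.82% of all genes were higher and 5.68% lower. At levels from 8 to 14 these shares of all genes were 11.2% and 9.48%. The counts of the lists were not tested against them. BOP1 was lower by 0.43 (limma adjusted p = 7.01e-07) and RRP9 higher by 0.55 (limma adjusted p = 6.62e-08). UTP14A, a nucleolar assembly factor, differed by -0.46 at 48 h and 0.10 at 72 h, and the change between times passed its test at 0.56 (limma adjusted p = 0.00598). Of 28 initiation factors, 1 was higher and 3 lower. Some markers of other cell types differed too: CD14 of the leukocyte list was higher by 1.00 at 48 h and 1.06 at 72 h, and TEK of the endothelial list by 0.78 and 0.68. DCN of the fibroblast list was lower by 0.36 at 72 h and ACP3 of the luminal list by 0.25 at 48 h. The part of these shifts in the members' values was not tested.

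**Figure D4:**
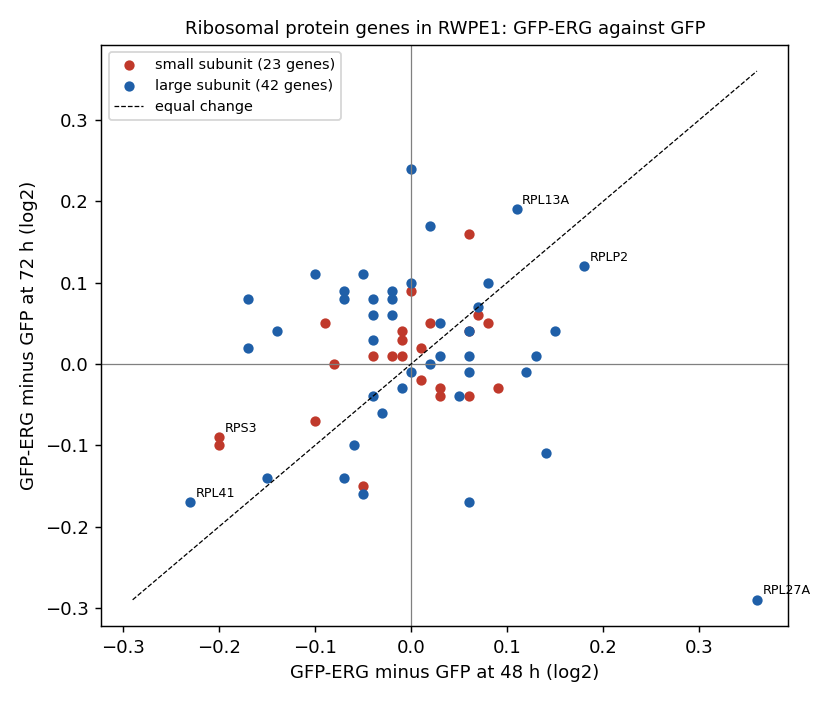
Log2 difference between GFP-ERG and GFP at 48 h (horizontal) and at 72 h (vertical) for the 65 ribosomal protein genes of RWPE1. Each point is 1 gene, coloured by subunit, and the dashed line marks equal effect; RPL27A at 0.36 and -0.29 stands apart from a cloud without slope.

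In VCaP the arrays labelled ERG shRNA differ between themselves, which comes before any result there. Array 2 was below array 1 for 54 of the 65 members, with a median difference of -0.38. By over 0.5 differed 29 members (44.6%), against 6.52% of all genes. The members are brighter than most genes, and no share at matched level was computed for these gaps. In the scramble pair the median was 0.01 and 1 member, RPS4X at 0.73, differed by over 0.5. The members with the largest gaps were RPL34 at 10.89 and 9.38, RPL23A at 11.55 and 10.13, RPL9 at 12.09 and 10.72, RPL13A at 14.16 and 12.80, and RPL14 at 10.57 and 9.38, all lower on array 2.

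Against scramble shRNA, the arrays labelled ERG shRNA had 7 members that fell and 0 that rose. Among all genes, 1.68% were higher and 1.81% lower. Between levels of 8 and 14, 5 of 34 members (14.7%) fell, against 3.81% of all genes there. At or above 14, 2 of 30 members (6.67%) fell, against 6.25% of all 64 genes there, these 30 included. The members that fell were RPS21 and RPS15A of the small subunit and RPL36, RPL35A, RPL39, RPL36A and RPL31 of the large one. The median difference was -0.30 for the 23 small subunit and -0.34 for the 42 large subunit genes, beside 0.00 over all genes. With a term for array number in the fit, 0 members passed and 0 of all genes did. Without array 1 of the arrays labelled ERG shRNA, the medians were -0.69 and -0.57, with 1 member higher and 36 lower, when 6.95% of all genes were higher and 6.37% lower in that fit. Without array 2 they were -0.18 and -0.09, with 8 higher and 9 lower, when 3.2% and 3.78% of all genes were. Without either scramble array 0 members passed, and 0 of all genes did, with the smallest adjusted p among members at 0.251 and 0.319 and with 17 and 16 members at an unadjusted p under 0.05.

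RPS21, a small protein of the small subunit, read 12.09 and 12.28 with scramble and 10.17 and 10.02 in the arrays labelled ERG shRNA. Both lay below both controls, and it fell by 2.09 (SE 0.10, 4.26-fold, limma adjusted p = 0.026). RPL36 read 13.63 and 13.64 against 12.27 and 12.09 and fell by 1.46 (SE 0.07, limma adjusted p = 0.028). RPL35A, a Diamond-Blackfan anaemia gene, read 14.66 and 14.91 against 13.74 and 13.56 and fell by 1.13 (SE 0.12, limma adjusted p = 0.0487). For each of the 3 genes both arrays were below both scramble arrays by more than the gap within either pair.

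RPL39 and RPL31 lie at the peptide exit tunnel. RPL39 read 14.32 and 14.44 against 13.59 and 13.42, and RPL31 read 13.23 and 13.25 against 12.79 and 12.74. They fell by 0.87 and 0.48, with groups that did not overlap. RPS15A read 14.67 and 14.84 against 14.03 and 14.06 and fell by 0.71, and RPL36A read 8.37 and 8.47 against 7.71 and 7.77 and fell by 0.67. On the arrays labelled ERG shRNA RPL36A lay below the median gene (7.85 and 7.84), so its fall ended near the lower end of the signal. The values of these 7 genes kept their sign in all 11 alternatives, and RPS15A passed the threshold in 4 of them. Without array 2 of the arrays labelled ERG shRNA, RPL35A and RPS15A did not pass. RPL36AL, a paralog close to RPL36A, fell by 1.47. Whether a probe for one reads part of the other was not tested.

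Larger differences with more spread did not pass. RPL29 read 11.17 and 11.13 against 9.70 and 8.98, a difference of -1.81 (SE 0.28, limma adjusted p = 0.0752). RPS26 differed by -1.47, RPS7 by -1.32 and RPS28 by -1.27, with limma adjusted p of 0.168, 0.143 and 0.0554. In the other direction RPL22 read 13.41 and 13.46 against 14.51 and 14.20, a difference of 0.92 (SE 0.12, limma adjusted p = 0.0625). RPL28, RPL4 and RPL3 differed by 0.76, 0.45 and 0.36. In all, 38 members had both arrays labelled ERG shRNA below both scramble arrays and 8 had both above, where 23.9% and 28.9% of all genes did so.

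**Figure D5:**
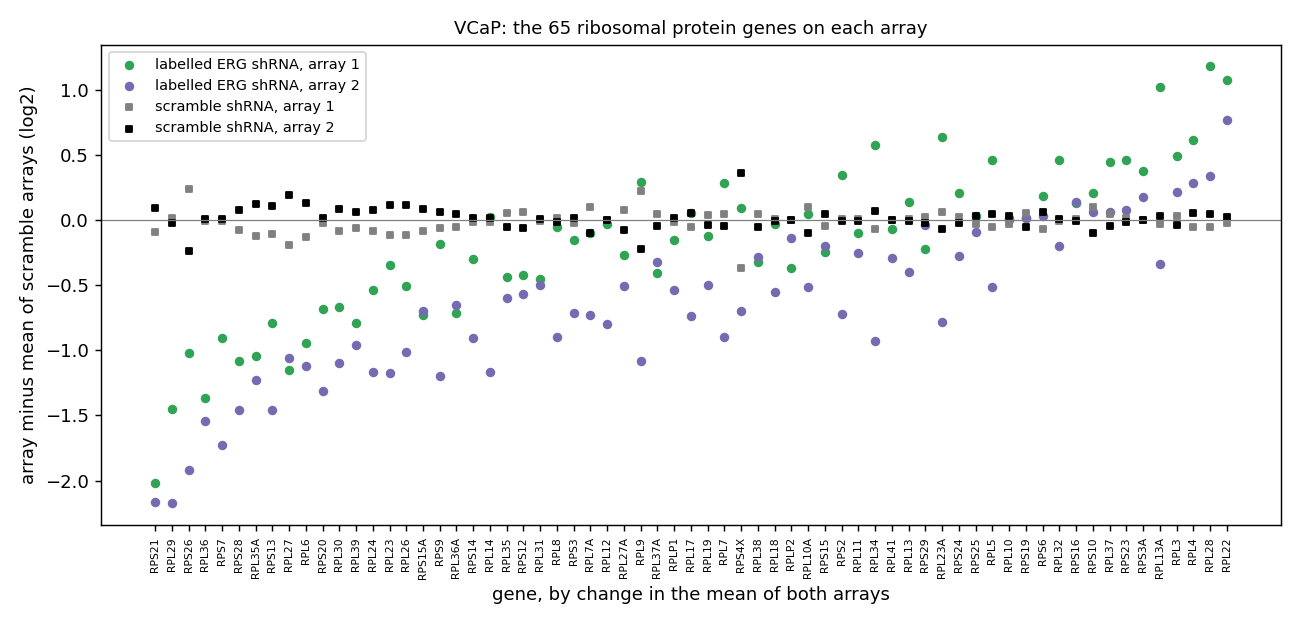
Log2 signal of each VCaP array minus the mean of the 2 scramble arrays for the 65 members, ordered by their mean difference from RPS21 to RPL22. Each point is 1 array of 1 gene, circles for the arrays labelled ERG shRNA and squares for scramble; the circles of array 2 are mostly the lower ones, and both circles are low for the genes at the left.

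Each against the scramble mean, array 1 had a member median of -0.11 with 38 of 65 below 0, and array 2 a median of -0.60 with 53 below. Over all genes the medians were 0.00 and 0.01. At least 1 log2 unit below the scramble mean lay 7 members on array 1 and 18 on array 2. These are 10.8% and 27.7% of members beside 1.48% and 2.61% of all genes. No value lay below 7.44 and 9377 of all 16922 genes had a mean level below 8, which leaves little room for such a fall. Shares at matched level were not computed. The 2 profiles correlated at r = 0.76 over 65 genes and share the scramble arrays. The stalk proteins RPLP1 and RPLP2 differed by -0.35 and -0.25, RPL5 and RPL11 by -0.03 and -0.18, RPS19 by 0.02 and RPS6 by 0.11, and none of these passed.

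Several VCaP members gave other values at a second probe. RPS24, a Diamond-Blackfan anaemia gene with known transcript variants, differed by -0.04 at the probe used, at a level of 12.87, and fell by 2.13 at a probe at 10.84 for another transcript. RPL34 differed by -0.18 at one probe and fell by 1.61 at the other. RPS15 differed by -0.22 at the probe used and fell by 1.13 at the other. RPL3 differed by 0.36 at the brighter probe and was higher by 0.56 at the second, which passed. RPL36 fell at both probes, by 1.46 and 0.66. Probes of a gene read different stretches of it, so for 16 members with several probes the value rests on the choice of the brightest. For most of these a dimmer probe gave a lower value than the probe used. Dimmer probes of RPL3 and RPL36, and another of RPS29, gave higher ones. Dimmer probes of RPL34, RPL41, RPS15, RPS24 and RPS29 passed as lower where the probe used did not. The count of members that fell therefore depends on which probe is read.

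Other translation genes in VCaP had medians nearer 0. The 49 biogenesis genes had a median of 0.01, with 2 higher and 1 lower, when 1.68% of all genes were higher and 1.81% lower. NOP10, a small protein of snoRNPs that guide pseudouridylation, fell by 1.68. The 27 initiation factors had a median of 0.08 with 0 passing. Of 16 elongation factor and other TOP genes, with a median of 0.13, EEF2, the translocase of elongation, and EIF4A2, a helicase of initiation, were higher by 1.01 and 0.61. The 16 genes of translation control by mTOR had a median of 0.03. FAU differed by -1.24 (limma adjusted p = 0.104).

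Gene length and markers are given beside these values. The members are short genes, with a median span of 5057 bases against 26294 for all genes of both tables, and their VCaP difference correlated with span at r = 0.38 and rho = 0.25 over 65 genes. In the RWPE1 time comparison the same figures were -0.07 and -0.01. Of 6 luminal markers in VCaP, ACP3 was higher by 0.88 and KLK3 lower by 0.69, and the list's mean level was 10.94 to 11.07 with scramble and 11.02 to 11.07 in the arrays labelled ERG shRNA. The fibroblast and basal lists were wholly below the median gene, as were 4 of 5 endothelial and 4 of 5 leukocyte markers. Their part, and that of RNA quality, in the members' values was not tested.

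The members that rose with time in RWPE1 were also read in VCaP. The 16 genes that rose in both kinds of RWPE1 cell had a median VCaP difference of -0.38, with 13 below 0 and 3 above. The 40 members that rose in neither had a median of -0.33, with 31 below 0 and 9 above. Over the 65 genes the change with time in GFP cells and the VCaP difference correlated at r = -0.10 and rho = -0.06. RPS21, RPL29 and RPS7 rose in RWPE1 and had VCaP differences of -2.09, -1.81 and -1.32, whereas RPL22 rose in RWPE1 and had a VCaP difference of 0.92. The designs use different probes and other cells, and no test was made across the tables.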

How the data were processed

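The deposited log2 values of both tables were used as the authors left them. They were read as log2 signals because they span 5.95 to 15.15 in RWPE1 and 7.44 to 15.45 in VCaP, which leaves the log base an inference. The sources used here do not give the authors' software, background correction or normalization. Sorted values of an array lay within 0.0391 (RWPE1) and 0.000211 (VCaP) of the mean sorted values, so no further normalization was applied. Depth has no meaning here, and the 2 arrays per group limit the precision. Tables were normalized separately and tested separately.

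Probes were named from the platform annotation, with 18332 of 20589 RWPE1 and 21833 of 24525 VCaP probes having 1 gene symbol. Differences were fitted to 16591 and 16922 genes with limma 3.58.1 in R 4.3.3 (lmFit, eBayes, group means), and p-values were adjusted by Benjamini-Hochberg within each table over every gene. Tables and figures used Python 3.11.15, pandas 2.3.3 and matplotlib 3.10.9. The fits were tested on simulated data. Alternatives were another variance prior, an array-number block, the mean of all probes, a filter on dim genes, 3 scalings, fewer arrays and leaving out each array.

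Members and lists were chosen with earlier results of these data known. Genes were named by role list, by the largest and smallest changes of each comparison and subunit, by gaps within a pair and by disagreement of probes.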

Additional observations from a re-analysis of the deposited data

Results flagged for a closer look

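RPL27A was singled out because the effect of GFP-ERG in RWPE1 differed between the 2 times by the test of the difference itself. The difference, 72 h minus 48 h, was -0.64 (SE 0.11, limma adjusted p = 0.00395). It kept its sign in all 15 alternatives and passed in 13, with adjusted p from 0.00154 to 0.0591 and values from -0.76 to -0.53. The calls were lost without GFP array 1 of 48 h (adjusted p 0.0591) and without GFP array 2 of 72 h (adjusted p 0.0533). Groups of 2 arrays were too small to look for single arrays far from their group.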

How the results depend on the processing

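No called gene changed its sign in any alternative. Member medians near 0 did cross it: the small subunit median for GFP-ERG against GFP ran from -0.02 to 0.03 at 48 h, from -0.02 to 0.02 at 72 h and, for the difference between times, from -0.01 to 0.03 when 1 array was left out. In VCaP, 7 members passed, against 15 with a trended, robust prior, 12 with dim genes left out, 0 with the array-number block (smallest adjusted p 0.0899, 26 members at an unadjusted p under 0.05) and 0 to 37 when 1 array was left out. Over all genes VCaP calls went from 591 to 1705, 1007, 0 and 0 to 2254. The VCaP small subunit median was -0.49 with the mean of all probes and -0.69 to -0.18 when 1 array was left out; the large subunit median was then -0.57 to -0.09. With only the 4 arrays compared, GFP-ERG changed 1 member at 48 h and 2 at 72 h. Leaving out 1 array gave 0 to 3 calls at 48 h, 0 to 2 at 72 h, 1 to 4 for the mean of both times and 0 to 1 for the difference between times, whose large subunit median was 0.01 to 0.06. For 72 h against 48 h it gave 18 to 27 calls with GFP and 17 to 21 with GFP-ERG, where the large subunit median was 0.06 to 0.14. Of the 48 calls over time, 32 passed in all 16 alternatives. A group left with 1 array is assumed to vary like the others. The labels do not say whether arrays of the same number share a preparation. Deviations of same-numbered arrays correlated at -0.0571 to 0.0776 in RWPE1 and at 0.19 in VCaP. The block moved no RWPE1 count by over 1.5 times. Whether signal saturates near the top of the scale was not tested.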
